A study of Mus musculus with 65 samples.

Results

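The distal chromosome ends of 16 mouse autosomes held 397 of the 13808 DMC1 hotspots that the authors listed for wild-type testes. A hotspot was taken as a member by position alone: its centre lay within 5 Mb of the last peak end of its chromosome over all deposited peak lists, on chromosomes 1 to 19 without 4, 9 and 13. These hotspots are called distal hotspots here. Mouse chromosomes are telocentric, so this end is the one far from the centromere. The last peak end stands in for the chromosome end, and telomere sequence itself was not analysed here. The same 16 chromosomes held 10811 other hotspots.

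The series mapped MEI4, IHO1, HORMAD1, SYCP3, DMC1, CTCF and PRDM9 by chromatin immunoprecipitation and sequencing (ChIP-seq) in whole testis, with 65 samples in 36 groups, of which the 24 groups with a peak list were used here. The genotypes were wild-type C57BL/6JCrl and the knockouts B6;129P2-Prdm9tm1Ymat/J (Prdm9KO), Spo11tm1Mjn (Spo11KO), Mei4tm1Bdm (Mei4KO), Iho1tm1.2Atot (Iho1KO) and Hormad1tm1.2Atot (Hormad1KO). In every group, wild type included, spermatogenesis had been synchronised: male pups aged 1.5 days were fed WIN 18,466, which the labels call a retinoic acid inhibitor, for 7 to 10 days, and then received 1 dose of retinoic acid. Testes were collected 8 days post-injection, with spermatocytes in leptotene or zygotene making up 80 to 95% of cells by the labels, so other testis cells remained in each sample. Each protein and genotype had a single peak list. Behind it stood 1 sample for SYCP3 in Prdm9KO, in Spo11KO and in Iho1KO, and 2 samples otherwise, and whether a list pools them is not stated. No difference between genotypes therefore has a replicate check.

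Meiotic breaks are made by SPO11 at sites marked by PRDM9, and DMC1 coats the single-stranded DNA that the breaks leave, so DMC1 peaks mark hotspots. MEI4 and IHO1 belong to the machinery that SPO11 needs. HORMAD1 and SYCP3 are proteins of the chromosome axis, and HORMAD1 recruits IHO1 to the axis. CTCF is an architectural DNA-binding protein, not a part of this machinery. Regions next to telomeres are known for frequent recombination in male meiosis.

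Of the 397 distal hotspots, 227 lay within a protein-coding gene, and 17 overlapped the promoter window of a transcript start, from 17 genes in all. The matching shares of all hotspots were not computed, so neither count tells distal hotspots from others. Promoter sequence was the only genomic sequence used, taken from RefSeq (assembly GRCm38.p6, which is the mm10 build that the submitters' processing notes name). The 250 bases before that transcript start are shown for the 4 of these genes whose hotspot had a MEI4 peak in Hormad1KO, the protein list with the largest difference between distal hotspots and hotspots of like strength. Rgs19 encodes a regulator of G protein signalling, P4hb a protein disulfide isomerase, Zfp941 a zinc finger protein and Pnliprp2 a lipase related to pancreatic lipase. All 4 are written on the gene's strand, 5′ to 3′, with capitals for the bases inside the hotspot.
Rgs19: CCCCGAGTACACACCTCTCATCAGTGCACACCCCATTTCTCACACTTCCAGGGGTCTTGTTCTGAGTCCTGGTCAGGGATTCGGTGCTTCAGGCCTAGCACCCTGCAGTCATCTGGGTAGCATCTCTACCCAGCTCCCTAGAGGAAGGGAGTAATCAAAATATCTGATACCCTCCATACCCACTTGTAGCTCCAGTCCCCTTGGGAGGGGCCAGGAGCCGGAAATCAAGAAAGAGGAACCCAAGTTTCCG
P4hb: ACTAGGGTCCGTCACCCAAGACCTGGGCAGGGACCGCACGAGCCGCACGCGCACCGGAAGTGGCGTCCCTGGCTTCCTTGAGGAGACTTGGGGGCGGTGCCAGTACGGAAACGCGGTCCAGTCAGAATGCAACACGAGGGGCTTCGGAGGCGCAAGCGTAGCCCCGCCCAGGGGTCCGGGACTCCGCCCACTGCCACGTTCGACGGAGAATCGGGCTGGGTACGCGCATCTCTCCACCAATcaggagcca
Zfp941: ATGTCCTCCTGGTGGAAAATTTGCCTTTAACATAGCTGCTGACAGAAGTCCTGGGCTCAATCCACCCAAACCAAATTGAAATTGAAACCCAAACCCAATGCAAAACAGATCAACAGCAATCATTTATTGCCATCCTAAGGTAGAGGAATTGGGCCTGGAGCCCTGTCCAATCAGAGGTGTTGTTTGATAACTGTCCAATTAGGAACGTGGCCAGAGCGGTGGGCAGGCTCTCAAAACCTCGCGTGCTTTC
Pnliprp2: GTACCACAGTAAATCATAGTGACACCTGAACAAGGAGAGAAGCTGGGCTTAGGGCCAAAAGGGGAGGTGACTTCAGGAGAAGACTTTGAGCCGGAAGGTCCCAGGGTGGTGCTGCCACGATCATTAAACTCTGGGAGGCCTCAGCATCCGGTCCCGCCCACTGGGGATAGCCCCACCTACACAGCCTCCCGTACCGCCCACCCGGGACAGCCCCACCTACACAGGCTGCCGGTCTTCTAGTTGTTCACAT

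In these 4, the hotspot covered every one of the 250 bases, except at P4hb, where it covered 241 and ended 9 bases before the gene start. The Rgs19 start is an internal one: its hotspot lay inside the gene and not within 1 kb of either gene end. The hotspot at Rgs19 (chr2:181690365-181692226, 322 kb from the end) had MEI4 peaks in Iho1KO and Hormad1KO and an IHO1 peak in Hormad1KO. Its DMC1 value was 82.0 in the wild type and 84.5 in Hormad1KO, but the values of the 2 lists are not on a shared scale. Among hotspots in both lists, its percentile rank (higher is stronger) was 4.24 in the wild type and 54.2 in Hormad1KO. The hotspot at P4hb (chr11:120573263-120575534) had MEI4 in Hormad1KO, HORMAD1 in the wild type, and SYCP3 in the wild type, Spo11KO and Iho1KO. Zfp941 (chr7:140820647-140822532) had MEI4 in Spo11KO and Hormad1KO and IHO1 in Spo11KO, and Pnliprp2 (chr19:58758724-58760439) had MEI4 in Hormad1KO alone. Neither of these hotspots was in the Hormad1KO DMC1 list. Within 1 kb of either end of a protein-coding gene lay 45 of the 397 distal hotspots (11.3%), beside 12.9% of all 11208 hotspots of the 16 chromosomes and 12.7% at like DMC1 value, a difference of -1.38 points (95% interval -4.21 to 2.17).

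The distal hotspots did not stand apart by strength. The wild-type DMC1 value is the authors' signal, in a unit they did not name, and it was used only to rank hotspots within its list. Its median was 131 over the distal hotspots (quartiles 63.5 and 339.5, highest 5164.5) and 128 over the others (55 and 426.75, highest 20822.5). In mean percentile rank they differed by 0.07 points (95% interval -2.55 to 2.70). The strongest class was thinner at the ends: 9 distal hotspots were among the 561 in the top 5% (2.27% of the 397), and among the stronger 50% of all hotspots the distal rank was lower by 6.44 points (95% interval -10.1 to -2.82). Hotspots were also somewhat sparser, at 4.96 per Mb in the distal 5 Mb against 5.62 per Mb elsewhere, while protein-coding genes were denser there (11.3 against 8.52 per Mb). Within the last 1 Mb there were 4.00 hotspots per Mb, and at 5 to 10 Mb from the end 7.00.

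Because occupancy goes with the DMC1 value, each share was compared at like value. The share of other hotspots with a peak was computed in 20 equal classes of wild-type DMC1 value and averaged with the distal hotspots' weights. A difference was called where its 95% interval (2 Wilson intervals combined by Newcombe's method) excluded 0. These intervals cover counting error only and treat hotspots as independent. By this rule the distal hotspots had more peaks than hotspots of like value in 8 of the 21 protein lists (MEI4, IHO1, HORMAD1 or SYCP3 in a genotype) and fewer in 2, and 11 were not called.

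MEI4, which marks hotspots in all genotypes but Prdm9KO, was found at distal hotspots more often than at like-value hotspots in the wild type, Iho1KO and Hormad1KO, and less often in Spo11KO. In the wild type, 48 distal hotspots had a MEI4 peak (12.1%), against 7.22% at like value, a difference of 4.87 points (1.99 to 8.46); over all 11208 hotspots the share was 10.6%. In Hormad1KO, 140 had one (35.3%), against 23.4% at like value, a difference of 11.9 points (7.26 to 16.7), with 26.3% over all hotspots. In Iho1KO, 97 had one (24.4% against 15.4%, difference 9.04 points, 5.03 to 13.5, with 18.6% over all). In Spo11KO the order turned: 62 had one (15.6%), against 25.4% at like value and 27.5% over all, a difference of -9.80 points (-13.1 to -5.85). In Prdm9KO, whose list held 80 peaks, no distal hotspot had one, and over all hotspots 1 did (0.00892%).

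IHO1, which HORMAD1 brings to the axis, was called higher in Hormad1KO and lower in Spo11KO, and was not called in the wild type. In the wild type its peaks were at 11 distal hotspots (2.77%, against 2.03% at like value and 3.95% over all), which left 0.74 points (-0.49 to 2.87), not called. In Hormad1KO they were at 67 (16.9% against 8.59%, with 12.3% over all), a difference of 8.29 points (4.89 to 12.3). In Spo11KO they were at 19 (4.79% against 11.2%, with 14.3% over all), a difference of -6.42 points (-8.20 to -3.81). That last call was lost in the wider 50% of the peaks (-1.05 points). In Prdm9KO and Mei4KO, 0.0892% and 0.303% of all hotspots had an IHO1 peak, and no distal hotspot did.

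**Figure D1:**
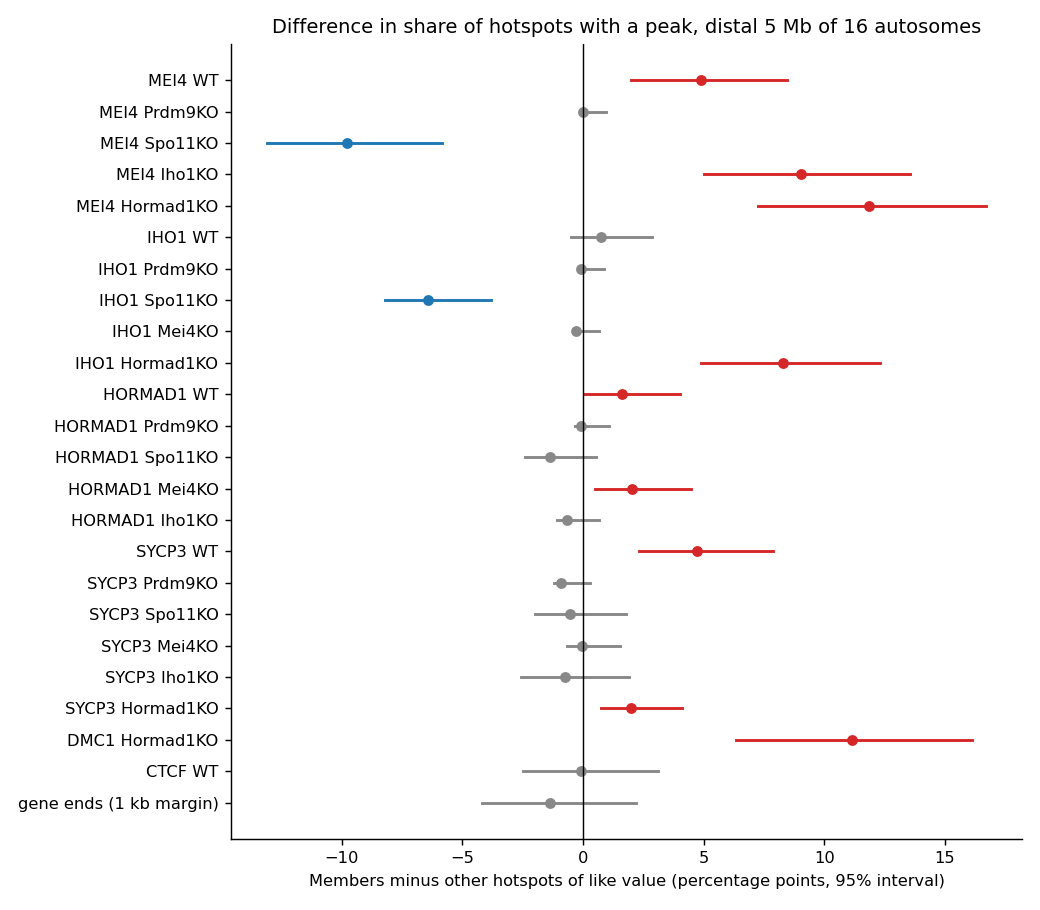
Difference in the share of hotspots with a peak, in percentage points, between the 397 distal hotspots and other hotspots of like wild-type DMC1 value, for 21 protein lists, the Hormad1KO DMC1 list, CTCF and gene ends. Points are differences and lines 95% intervals, red where higher, blue where lower and grey where the interval included 0; the 2 blue lists are MEI4 and IHO1 in Spo11KO.

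The axis proteins showed smaller differences. SYCP3 in the wild type was at 34 distal hotspots (8.56%, against 3.85% at like value and 7.33% over all), a difference of 4.71 points (2.33 to 7.89). In Hormad1KO it was at 11 (2.77% against 0.81%, with 1.40% over all), a difference of 1.97 points (0.74 to 4.09), and 9 of these 11 lay in the last 1 Mb. The SYCP3 differences in Prdm9KO (1 distal hotspot, with 1.02% of all), Spo11KO (14, with 5.53%), Mei4KO (4, with 1.08%) and Iho1KO (20, with 6.12%) were not called. HORMAD1 was at 16 distal hotspots in the wild type (4.03% against 2.42%, with 4.66% over all), a difference of 1.61 points (0.07 to 4.04) whose interval came close to 0 and included it without chromosome 7, 11 or 19 (1.28, 1.26 and 1.07 points). That call held in 3 of the 11 other settings tried, beside the leave-outs of single chromosomes. In Mei4KO HORMAD1 was also at 16 (4.03% against 1.99%, with 2.07% over all; difference 2.04 points, 0.48 to 4.47), of which 6 lay at gene ends, and without gene-end hotspots the difference, 1.14 points, was not called. HORMAD1 was at 1 distal hotspot in Prdm9KO, 8 in Spo11KO and 2 in Iho1KO, beside 0.321%, 5.14% and 1.36% of all hotspots, and these differences were not called.

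CTCF, mapped in the wild type, was at 33 distal hotspots (8.31% against 8.40% at like value, with 8.45% over all). The difference was -0.09 points (-2.49 to 3.08).

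The change from the wild type to a knockout was itself compared at like value, hotspot by hotspot. All changes of a protein share its wild-type list. They are in percentage points, and the MEI4 lists held 1566 peaks in the wild type, 3828 in Hormad1KO and 2679 in Iho1KO. Distal hotspots gained MEI4 peaks in Hormad1KO by 23.2 points and like-value hotspots by 16.2, a difference of 6.98 points (2.48 to 11.5). In proportion to the wild-type share, the MEI4 gain was not larger at distal hotspots. Shares rose from 12.1 to 35.3% there and from 7.22 to 23.4% at like value, and in Iho1KO to 24.4 and 15.4%. In Iho1KO the gains were 12.3 and 8.17 points (difference 4.17, 0.45 to 7.89), a call that ended without any 1 of chromosomes 2, 3, 6, 7, 18 and 19 (3.16 to 3.84 points), over the spread of the chromosomes (4.13, -0.80 to 9.07), with intervals widened for the number of comparisons and in the stronger 50% of hotspots (4.13). For IHO1 in Hormad1KO the gains were 14.1 and 6.56 points (difference 7.55, 4.02 to 11.1). Without the last 1 Mb none of these 3 differences was called (3.17 points for MEI4 in Hormad1KO, -1.19 in Iho1KO and 2.67 for IHO1 in Hormad1KO), and among the stronger 50% of hotspots that of MEI4 in Hormad1KO was 2.03 points and not called. With a window of 10 Mb the MEI4 changes turned and were called lower, at -4.25 points in Hormad1KO (-6.66 to -1.84) and -4.12 in Iho1KO (-6.21 to -2.03), and that of IHO1 in Hormad1KO was -0.024 and not called. In Spo11KO, distal hotspots gained 3.53 points of MEI4 where like-value hotspots gained 18.2 (difference -14.7, -17.6 to -11.7), and 2.02 points of IHO1 where the others gained 9.18 (difference -7.16, -9.19 to -5.13). The IHO1 change was -0.52 points and not called with a window of 10 Mb. SYCP3 fell at distal hotspots relative to like-value hotspots in all 5 knockouts, by differences from -2.75 points in Hormad1KO (-5.26 to -0.23) to -5.62 in Prdm9KO (-8.44 to -2.80). In Spo11KO and Iho1KO the like-value hotspots gained SYCP3 peaks, by 0.22 and 1.95 points. Where a knockout list held few hotspot peaks, as in Prdm9KO and Mei4KO, this difference is mostly that of the wild type with its sign turned. That is also so for SYCP3 in Spo11KO and Iho1KO. There the shares themselves differed by -0.55 and -0.77 points, beside 4.71 in the wild type. The Hormad1KO call ended without chromosome 1, 5 or 11 (-2.45, -2.50 and -1.97 points), with a window of 3 Mb (-1.13), an overlap of 50% (-1.45), without gene-end hotspots (-2.66), and with widened intervals. In the wider or higher 50% of lists the calls ended in Spo11KO (-1.87), Mei4KO (-2.33) and Hormad1KO (-1.50), and the Iho1KO call ended without gene-end hotspots (-2.76).

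Distal hotspots with MEI4 in Hormad1KO but not in Spo11KO numbered 86 (21.7%), beside 4.75% of the other hotspots, and those with MEI4 in Spo11KO but not in Hormad1KO numbered 8 (2.02%), beside 6.64%. Of the 48 distal hotspots with wild-type MEI4, 38 (79.2%) kept it in Spo11KO, beside 95.7% of the 1136 others, and 43 (89.6%) had it in Hormad1KO, beside 93.0%. In Hormad1KO, 63 of the 67 distal hotspots with IHO1 also had MEI4 (94.0%), beside 97.1% of the 1308 others with IHO1. Of the 67, 66 were in the Hormad1KO DMC1 list (98.5%), beside 98.0% of those others. These shares are not at like value and are given as a description.

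The excess reached down to weak hotspots. In the second of 4 equal classes of the wild-type DMC1 value (55.5 to 128), 24 of 111 distal hotspots had MEI4 in Hormad1KO (21.6%), beside 4.91% of the 2690 others, while 0 of 111 had MEI4 in Spo11KO, beside 3.35%. In the strongest class (422.5 and above), 70 of 85 had MEI4 in Hormad1KO (82.4% beside 74.9%) and 54 of 85 in Spo11KO (63.5% beside 82.9%). The distal hotspots with MEI4 in Hormad1KO had wild-type DMC1 values with a median of 422.5, beside 833.25 for the others with MEI4 there.

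**Figure D2:**
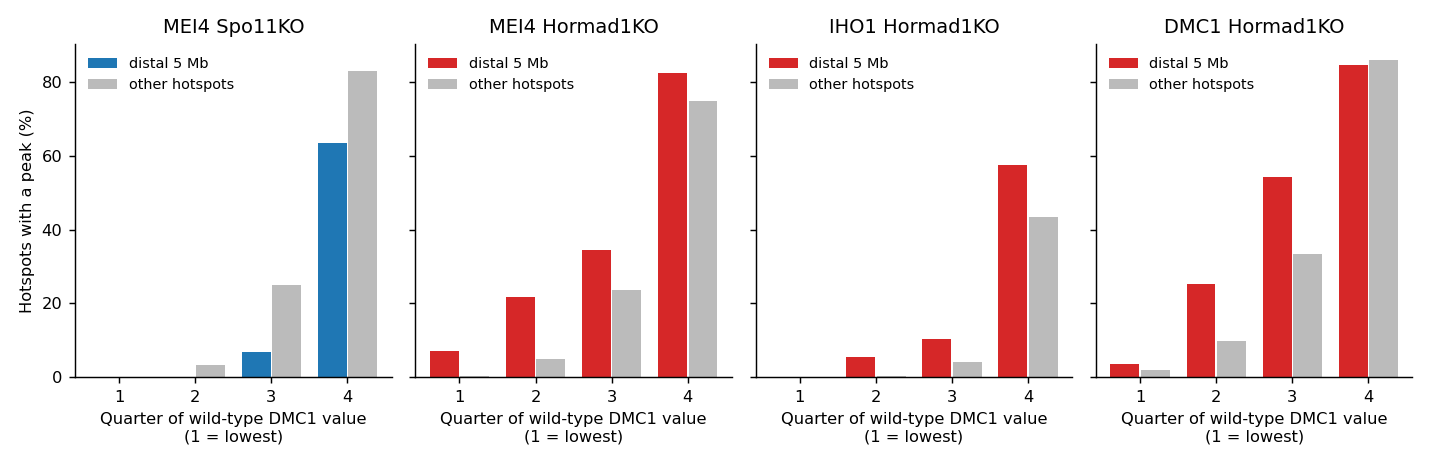
Share of hotspots with a peak (%) in 4 equal classes of wild-type DMC1 value (1 is the weakest), for distal hotspots (coloured bars) and the other hotspots of the same chromosomes (grey bars). MEI4 in Hormad1KO was at 21.6% of distal and 4.91% of other hotspots in class 2, and MEI4 in Spo11KO was at 63.5% and 82.9% in class 4.

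DMC1 itself was found at distal hotspots more often in Hormad1KO. Of the 397, 166 (41.8%) were in the Hormad1KO DMC1 list, against 30.7% at like value and 33.1% of all hotspots of the 16 chromosomes, a difference of 11.1 points (6.33 to 16.1). Among the 3715 hotspots in both DMC1 lists, the 166 distal ones had a mean Hormad1KO percentile rank of 46.2, against 40.0 at like value, a difference of 6.22 points (1.66 to 10.8). This rank difference was not called over the spread of the chromosomes (4.07 points, -1.51 to 9.65) or without chromosome 6 (4.81) or 7 (4.16), and it was -0.22 without the last 1 Mb. The Hormad1KO list held 174 hotspots in the same distal windows, of which 8 (4.60%) were missing from the wild-type list, beside 4.52% elsewhere on these chromosomes.

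Within the 5 Mb, the shares fell steeply with distance from the end. The 64 hotspots of the last 1 Mb, on 15 chromosomes, were of median wild-type strength 139.75. MEI4 in Hormad1KO was at 42 of them (65.6%, Wilson 95% interval 53.4 to 76.1), on 14 of the 15 chromosomes. At 1 to 2 Mb the share was 45.0%, at 2 to 3 Mb 36.7%, at 3 to 4 Mb 26.5% and at 4 to 5 Mb 12.1%. MEI4 in Iho1KO went from 60.9% in the last 1 Mb to 23.8%, 22.8%, 16.9% and 7.69%, and IHO1 in Hormad1KO from 46.9% to 16.3%, 13.9%, 9.64% and 5.49%. The Hormad1KO DMC1 list held 70.3% of the hotspots of the last 1 Mb (58.2 to 80.1) and then 47.5%, 50.6%, 32.5% and 17.6%. SYCP3 in Hormad1KO was at 9 of the 64 (14.1%), then at 2 of 80, and at none of the 253 hotspots between 2 and 5 Mb. Between 4 and 5 Mb the shares were below like value for MEI4 in Hormad1KO (-7.96 points) and DMC1 in Hormad1KO (-8.83 points).

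Compared at like value in 5 value classes, hotspots of the last 1 Mb exceeded the other 333 distal hotspots for MEI4 in Iho1KO by 34.0 points (20.9 to 45.7), for MEI4 in Hormad1KO by 27.2 (14.3 to 38.4), for IHO1 in Hormad1KO by 28.6 (15.9 to 41.4), for SYCP3 in Hormad1KO by 12.9 (5.72 to 23.5) and for DMC1 in Hormad1KO by 28.3 (15.4 to 39.1). SYCP3 in Iho1KO (8 of 64, 7.90 points, 0.89 to 18.4) was also called higher in the last 1 Mb. This split was chosen after the shares by distance were seen. In the wild type the last 1 Mb did not differ for MEI4 beyond the interval (1.19 points, -8.22 to 13.3), nor did SYCP3 (2.63, -5.87 to 14.1). Leaving out 1 chromosome at a time, the share of the last 1 Mb with MEI4 in Hormad1KO ran from 62.1 to 67.3%, with MEI4 in Iho1KO from 56.9 to 65.5%, and with DMC1 in Hormad1KO from 67.2 to 76.4%. In Spo11KO the share itself was nearly flat, with MEI4 at 17.2, 13.8, 13.9, 16.9 and 16.5% of hotspots in the 5 successive bins and at 23.9% between 5 and 10 Mb. Against like value, however, the MEI4 difference was -16.5 points in the last 1 Mb, then -8.17, -12.9, -8.51 and -4.99, and 1.84 between 5 and 10 Mb. For IHO1 in Spo11KO the differences were -13.8, -3.45, -7.61, -6.42 and -2.84 points, and 4.12 between 5 and 10 Mb.

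**Figure D3:**
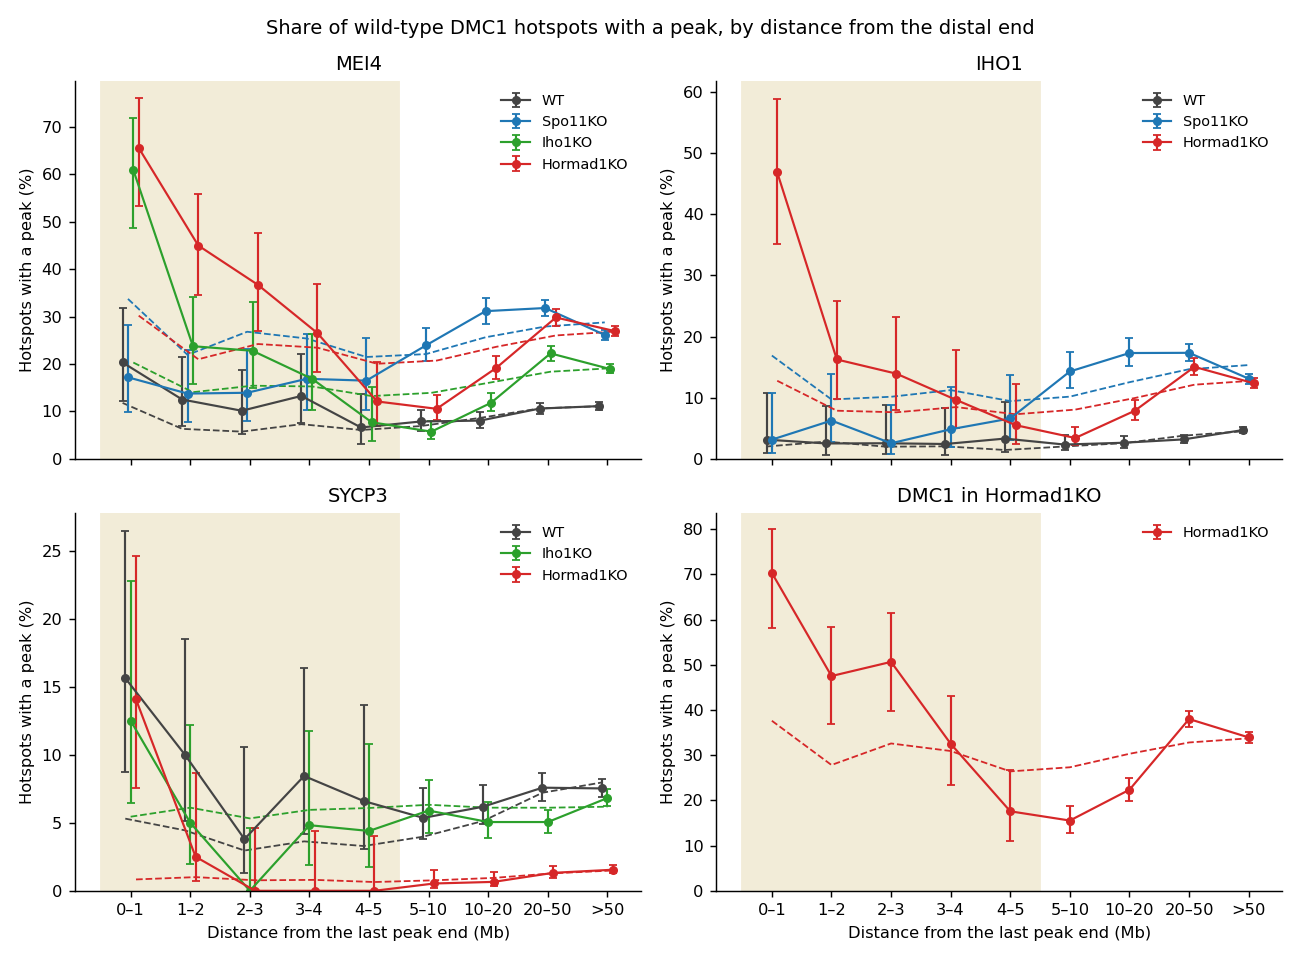
Share of wild-type DMC1 hotspots with a peak (%, points with Wilson 95% intervals) by distance from the last peak end of the chromosome (Mb, unequal bins beyond 5), for MEI4, IHO1, SYCP3 and Hormad1KO DMC1. Dashed lines give the share expected at like value and the shaded band marks the distal 5 Mb; the Hormad1KO and Iho1KO lines peak in the last 1 Mb and are below like value at 5 to 10 Mb.

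Next to the window the pattern reversed. In the 560 hotspots at 5 to 10 Mb, MEI4 in Hormad1KO was at 10.5%, 10.2 points below like value, MEI4 in Iho1KO at 5.71%, 8.19 points below, and DMC1 in Hormad1KO at 15.5%, 11.8 points below. With a window of 10 Mb in place of 5 Mb (957 hotspots) the differences were -1.62 points for MEI4 in Hormad1KO, -1.49 for MEI4 in Iho1KO, 0.49 for IHO1 in Hormad1KO, -0.01 for IHO1 in Spo11KO and -2.94 for DMC1 in Hormad1KO, none of them called. Without the last 1 Mb, the differences for the remaining 333 distal hotspots were 7.34 points for MEI4 in Hormad1KO (2.66 to 12.5), 3.33 for IHO1 in Hormad1KO (0.36 to 7.18) and 7.02 for DMC1 in Hormad1KO (1.98 to 12.4), all called, and 2.98 for MEI4 in Iho1KO (-0.76 to 7.46), which was not.

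The DMC1 rank followed the same gradient. Of the 45 hotspots of the last 1 Mb in both DMC1 lists, 43 had a higher percentile rank in Hormad1KO than in the wild type. Of the 3549 shared hotspots that were not distal, 48.3% did. The mean rank of the 45 was 62.4 in Hormad1KO beside 34.2 in the wild type. Hotspots of like wild-type value had 39.1 in Hormad1KO, and 40 of the 45 were above like value. At 1 to 2 Mb the Hormad1KO rank was 45.8, against 38.7 at like value. At 4 to 5 Mb it was 41.5, against 48.2, and at 5 to 10 Mb 39.2, against 49.8.

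**Figure D4:**
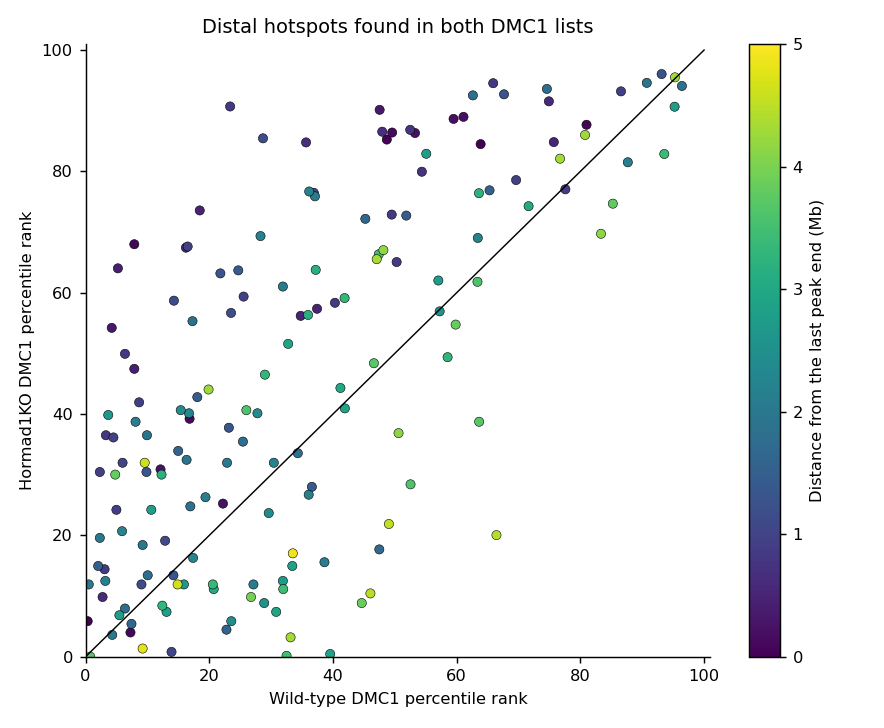
Percentile rank of the DMC1 value in Hormad1KO against that in the wild type, among 3715 hotspots in both lists, for the 166 distal hotspots, coloured by distance from the last peak end (Mb). The line marks equal rank. Of the 45 hotspots in the last 1 Mb, 43 lie above it, and 40 were above hotspots of like wild-type value in Hormad1KO rank.

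The chromosomes differed in the size of the difference. For DMC1 in Hormad1KO it was 42.0 points on chromosome 6, 33.1 on chromosome 2 and 32.5 on chromosome 12, and it was below 0 on 5 of 16 (chromosomes 1, 8, 10, 15 and 16, from -0.72 to -6.31). For MEI4 in Hormad1KO it was above 0 on 14 of 16, from 45.5 points on chromosome 12 to -7.70 on chromosome 8, and for IHO1 in Hormad1KO it was also above 0 on 14. In Spo11KO, MEI4 was below like value on 16 of 16 chromosomes, from -1.10 to -23.5 points, and IHO1 on 15 of 16. An interval from the spread of the chromosomes gave a mean of 12.3 points for MEI4 in Hormad1KO (4.67 to 19.9), -10.7 for MEI4 in Spo11KO (-14.6 to -6.82) and 12.2 for DMC1 in Hormad1KO (3.68 to 20.8).

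**Figure D5:**
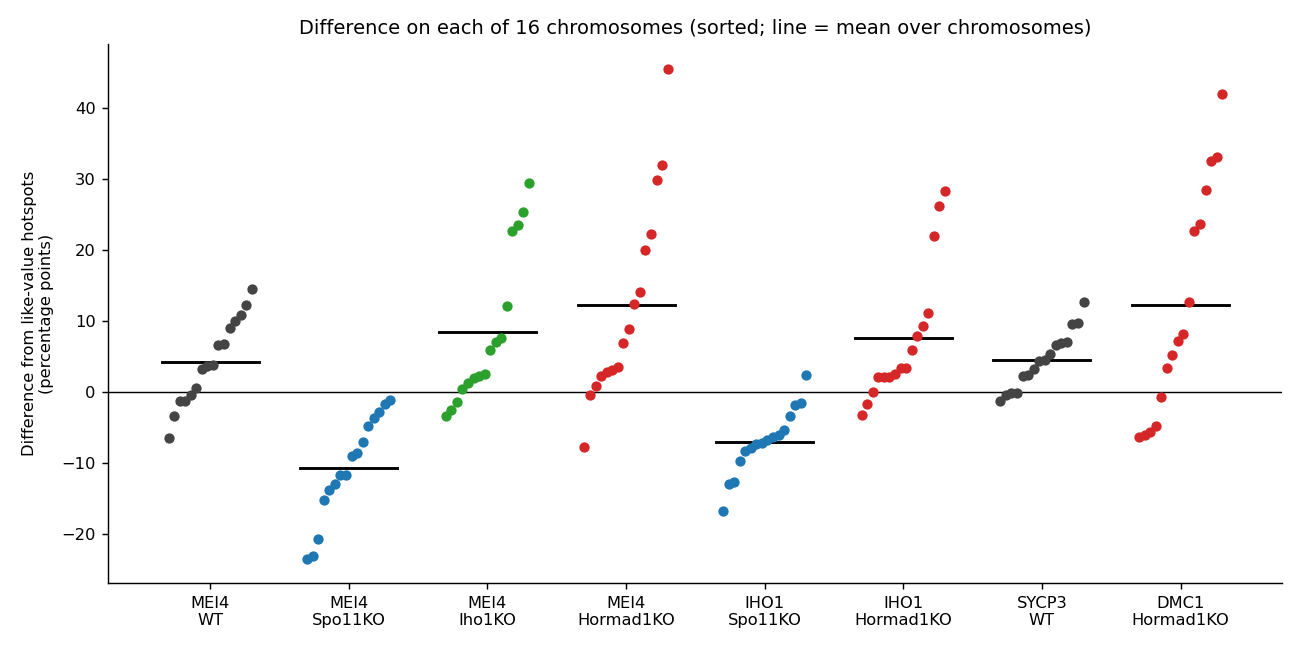
Difference between distal and like-value hotspots (percentage points) on each of the 16 chromosomes, for 8 lists, sorted within each list, with 1 point per chromosome and a line at the mean. All 16 points of MEI4 in Spo11KO lie below 0, and 14 of 16 of MEI4 in Hormad1KO lie above it.

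The 10 strongest distal hotspots lay on chromosomes 2, 3, 6, 8, 10, 17 and 19. All 10 had MEI4 in the wild type, Spo11KO, Iho1KO and Hormad1KO, IHO1 in Hormad1KO, and a place in the Hormad1KO DMC1 list. In the wild type, 6 had IHO1, 7 had HORMAD1 and 8 had SYCP3. They were picked by strength, with which occupancy goes. In the strongest of the 4 value classes (422.5 and above), other hotspots had MEI4 at 82.9% in Spo11KO and 74.9% in Hormad1KO. In the Hormad1KO DMC1 list were 86.0% of them, and 43.5% had IHO1 in Hormad1KO. For the wild-type lists their shares were 40.0% (MEI4), 14.9% (IHO1), 17.3% (HORMAD1) and 28.0% (SYCP3). For the Iho1KO list of MEI4 their share was 55.9%. No share of other hotspots at the strength of these 10 was computed. The strongest (chr19:59442013-59444104, wild-type DMC1 5164.5, 1888 kb from the end) lay 14.6 kb from Emx2, which encodes a homeobox transcription factor, and had peaks in 11 of the 21 lists. Another of the 10 lay within Nrp1 (chr8:128371813-128374186, 2416), which encodes a neuropilin receptor. A pair lay 46.3 and 443 kb from Negr1, a neuronal cell adhesion gene (chr3:156513534-156515455 and chr3:156116916-156118962, 3763 and 2242.5), and 1 lay 2.13 kb from Smarcc2, a chromatin remodelling subunit (chr10:128454901-128457051, 2567.5).

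The largest number of lists, 13, was at chr6:147648847-147651308 (3108.5), 16.2 kb from Ccdc91, with MEI4 in 4 genotypes, IHO1 in 2, HORMAD1 in 3 and SYCP3 in 4. On chromosome 19, chr19:60057625-60059786 (3652, in 12 lists, nearest gene Rab11fip2, an effector of Rab11) ranked 329 in the wild-type list and 196 in the shorter Hormad1KO list of 5002. Chr7:142307128-142309203 (1290, 11 lists) lay 2.63 kb from Krtap5-4, a keratin-associated gene. Chr19:60478858-60481377 was the weakest of the 5 hotspots in the most lists (270.5, 11 lists, 851 kb from the end, 9.93 kb from Prlhr, which encodes the prolactin-releasing hormone receptor). Its value was 578.5 in Hormad1KO, on a scale not shared with the wild type. Among hotspots in both lists, its percentile rank was 23.4 in the wild type and 90.7 in Hormad1KO. It had MEI4 in the wild type, Spo11KO and Iho1KO but no MEI4 or IHO1 peak in Hormad1KO. In Iho1KO it also had HORMAD1.

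The hotspot nearest to the end was looked up on 15 chromosomes (those of chromosome 18 were counted but not named). Of these 15, 8 had MEI4 in Iho1KO and 10 in Hormad1KO (13 in either), 2 in the wild type and 1 in Spo11KO. Over all 11208 hotspots the MEI4 shares were 18.6%, 26.3%, 10.6% and 27.5%. In the Hormad1KO DMC1 list were 12 of the 15, beside 33.1% of all hotspots. The closest was chr7:145328706-145330229, 11.9 kb from the last peak end and 4.65 kb from Mrgprd, a G protein-coupled receptor gene. Its wild-type DMC1 value was 32.0, and its protein peak was MEI4 in Hormad1KO. Chr10:130542365-130544960 (1827, 51.3 kb from the end, near the vomeronasal receptor gene Vmn2r87) had MEI4 in Iho1KO and Hormad1KO, IHO1 in Hormad1KO, HORMAD1 in the wild type and SYCP3 in the wild type and Hormad1KO, and no MEI4 in the wild type or Spo11KO. Chr14:124595394-124597797 within Fgf14, a fibroblast growth factor family gene (943, 206 kb), and chr2:181811332-181813321 within Myt1, a zinc finger transcription factor gene (738, 201 kb), also had SYCP3 in the wild type and Hormad1KO and lacked MEI4 in Spo11KO. Chr6:149429582-149432288 within Bicd1, a dynein adaptor gene (664.5, 156 kb), was the 1 of the 15 with MEI4 in Spo11KO. Chr1:194839210-194841123 (125.5, at a CTCF peak, nearest gene Plxna2) and chr3:158963938-158966235 (44.5, nearest gene Lrrc7) were in none of the 21 lists.

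The 5 strongest distal hotspots missing from the Hormad1KO DMC1 list lay within Ttc3 (chr16:94379975-94381983, 825.5), Pnlip (chr19:58671867-58673993, 812), Rcor3 (chr1:192135428-192137195, 721), Mbnl2 (chr14:120316419-120318278, 625) and Kcnj6 (chr16:94891651-94893318, 617.5). Each lay between 2658 and 4485 kb from the end. Of the 5, 4 had MEI4 in Hormad1KO, beside 74.9% of the other hotspots in the strongest value class (422.5 and above). None had IHO1 in Hormad1KO. That count was nearly set by the choice of hotspots absent from the Hormad1KO DMC1 list. The list held 98.0% of the other hotspots with IHO1 in Hormad1KO. At the limit itself, the 3 hotspots just inside 5 Mb (4942 to 4994 kb from the end) had values of 71.5, 93.0 and 300.0, and the 3 just outside (5004 to 5029 kb) had 39.0, 37.5 and 38.0. None of these 6 had a peak in any of the 21 lists, and neither did 57.2% of all distal hotspots and 59.3% of the others.

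At the opposite chromosome end, in the first 5 Mb of peaks of the same 16 chromosomes, there were 564 hotspots, and 86 (15.2%) were in the Hormad1KO DMC1 list. Compared with these directly in 10 value classes, the distal hotspots were higher for DMC1 in Hormad1KO by 27.3 points (21.9 to 32.6), for MEI4 in Hormad1KO by 22.7 (17.6 to 27.9), for MEI4 in Iho1KO by 19.9 (15.7 to 24.4) and for IHO1 in Hormad1KO by 13.3 (9.64 to 17.4). For MEI4 in Spo11KO they were also higher, by 5.56 points (1.65 to 9.86). The lower occupancy in Spo11KO was found at this end too: MEI4 was at 11.3% of the 564, against 25.2% of like-value autosomal hotspots outside the compared chromosome ends (difference -13.9, -16.3 to -10.9), and IHO1 at 5.32%, against 12.6% (-7.26, -8.88 to -5.05). Compared with the 105 hotspots in the distal 5 Mb of chromosomes 4, 9 and 13, the distal hotspots of the 16 chromosomes were lower for DMC1 in Hormad1KO by 31.9 points (95% interval of the difference -39.2 to -23.9), for MEI4 in the wild type by 18.7 (-28.0 to -10.2) and for IHO1 in the wild type by 11.8 (-20.7 to -5.59). The difference for MEI4 in Spo11KO, -5.05 points (-13.6 to 2.23), was not called. Chromosomes 4, 9 and 13 also had MEI4 at 7 of these 105 hotspots in Prdm9KO, where the 397 had none.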

How the data were processed

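The data are lists of ChIP-seq peaks from synchronised mouse testes, 1 list for each of 24 groups. Per the submitters' processing notes, Bowtie2, MACS2 and the mm10 build were used, with no versions given. The series' design text says that the signal of each protein's own knockout had been subtracted. The deposited protein lists hold peak positions without strength, and the deposited DMC1 lists also a signal per hotspot in steps of 0.5, whose unit the authors did not name. The deposited lists carry no read counts, so depth is unknown, and 0 columns of other samples were met.

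With Python 3.11.15, numpy 2.4.6, scipy 1.17.1 and pandas 2.3.3, a peak was taken to lie at a hotspot where they shared at least 1 bp. Gene ends and names come from 21896 protein-coding RefSeq genes (GRCm38.p6). Rank differences and differences in the change from the wild type have normal 95% intervals. Intervals over the spread of chromosomes use the t distribution. The calculation was tested on simulated occupancy. No p-value was computed, since each group has 1 list.

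The members and lists were chosen with earlier results of these data known. Named hotspots are the 10 strongest, the 5 in the most lists, the nearest to each chromosome end, the 5 strongest missing from the Hormad1KO DMC1 list, and 3 on each side of the 5 Mb limit, with overlapping or nearest genes. Chromosome 18 hotspots were counted, not named. Of the 10 strongest, 2 are counted but not reported here by position or gene. Alternatives were windows of 3 and 10 Mb, an overlap of 50%, 50 value classes, comparison hotspots from all 19 autosomes, no gene-end hotspots, the stronger 50% of hotspots, the wider or higher 50% of lists, intervals over chromosomes or widened for 25 comparisons (17 for changes), and each chromosome left out. Leaving out the last 1 Mb was added after seeing the data.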

Additional observations from a re-analysis of the deposited data

Results flagged for a closer look

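The change of a protein from the wild type to a knockout differed between distal hotspots and hotspots of like wild-type DMC1 value in 13 of 17 comparisons, by an interval of the difference itself that excluded 0. Of these, 3 were higher in points at distal hotspots: MEI4 in Iho1KO (4.17 points), MEI4 in Hormad1KO (6.98) and IHO1 in Hormad1KO (7.55). In proportion to the wild-type share, the MEI4 gains were not larger there. The other 10 were lower: MEI4 in Prdm9KO (-4.88) and Spo11KO (-14.7), IHO1 in Spo11KO (-7.16), HORMAD1 in Spo11KO (-3.00) and Iho1KO (-2.28), and SYCP3 in Prdm9KO (-5.62), Spo11KO (-5.26), Mei4KO (-4.75), Iho1KO (-5.48) and Hormad1KO (-2.75). MEI4 in Prdm9KO was at 1 of all 11208 hotspots, so its change could only be close to the wild-type difference (4.87) with its sign turned. The SYCP3 changes in Prdm9KO, Spo11KO, Mei4KO and Iho1KO also mostly carry the wild-type difference (4.71). The HORMAD1 change in Iho1KO was not called with a window of 3 Mb (-2.08), in the wider or higher 50% of lists (-1.34) or with widened intervals, and that in Spo11KO was not called in the wider or higher 50% of lists (-1.30). Comparisons of 1 protein share its wild-type list, so they are not independent of each other. The intervals treat hotspots as independent, and their cause was not tested.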

How the results depend on the processing

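No paired analysis was possible because each group has 1 peak list, so the replicate numbers of the labels pair no values. Of 509 recomputed values beside those without 1 chromosome each, 426 kept both their direction and their call (or, for counts, stayed within 1.5 times). Of the others that kept their direction, 37 lost and 5 gained a call. A further 32 turned in direction, and 9 counts moved by more than 1.5 times. Depth is unknown, so a hotspot without a peak may hold signal under the authors' threshold, and this limits weak hotspots most. Where a value changed, the cause was not tested.

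With a window of 3 Mb, HORMAD1 in the wild type was 1.78 points and no longer called, and HORMAD1 in Prdm9KO was 0.12. With 10 Mb, MEI4 was -1.49 in Iho1KO and -1.62 in Hormad1KO, IHO1 was -0.0089 in Spo11KO, 0.15 in Mei4KO and 0.49 in Hormad1KO, SYCP3 in Mei4KO was 0.19, Hormad1KO DMC1 was -2.94, CTCF was 0.96, the Hormad1KO DMC1 rank was 0.18 and the wild-type DMC1 rank was -2.11. There the changes were -4.12 for MEI4 in Iho1KO, -4.25 for MEI4 in Hormad1KO (both called lower) and -0.024 for IHO1 in Hormad1KO, 5 protein lists were called higher and 1 lower, and 0 changes were called higher. Without the last 1 Mb, MEI4 in Iho1KO was 2.98, HORMAD1 in the wild type 0.91, SYCP3 in Hormad1KO -0.20, CTCF 0.039, the change of MEI4 in Iho1KO -1.19, the Hormad1KO DMC1 rank -0.22 and the wild-type rank -0.43, with 5 lists and 0 changes called higher.

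With an overlap of 50%, HORMAD1 in the wild type was 1.03 and CTCF 0.48. With comparison hotspots from 19 autosomes the wild-type rank was -0.023. Without gene-end hotspots, HORMAD1 was 1.51 in the wild type and 1.14 in Mei4KO, SYCP3 was 0.11 in Spo11KO, 0.27 in Mei4KO and 1.70 in Iho1KO (called higher), CTCF was 1.61, the change of HORMAD1 in Mei4KO was -0.37 and the wild-type rank -1.39. With the stronger 50% of hotspots, HORMAD1 in the wild type was 2.70 and not called, SYCP3 in Iho1KO 2.41, CTCF 0.92, gene ends 0.70, the change of HORMAD1 in Mei4KO -0.28 and the wild-type rank -6.44, with 1 change called higher. With the wider or higher 50% of lists, IHO1 in Spo11KO was -1.05, HORMAD1 was at 1.15 (wild type) and 0.0081 (Prdm9KO), SYCP3 was 1.02 in Spo11KO and 0.56 in Mei4KO, 1 list was called lower and 5 changes were called lower. The spread of chromosomes gave 1.19 for HORMAD1 in the wild type and 4.07 for the Hormad1KO DMC1 rank, neither called, and 6 lists called lower. The widened interval ended the calls of HORMAD1 in the wild type (1.61) and Mei4KO (2.04) and of the Hormad1KO DMC1 rank (6.22), and of the changes of MEI4 in Prdm9KO (-4.88) and Iho1KO (4.17), HORMAD1 in Iho1KO (-2.28) and SYCP3 in Hormad1KO (-2.75).

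Without 1 chromosome at a time, the Hormad1KO DMC1 rank ran from 4.16 to 7.32, HORMAD1 in the wild type from 1.07 to 1.87, the wild-type rank from -0.38 to 0.69, SYCP3 in Mei4KO from -0.55 to 0.090 and CTCF from -0.96 to 0.65.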
